A study of Rattus norvegicus with 2 samples.

Results

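Mast cells and basophils carry, beside the high-affinity IgE receptor, a set of receptors for growth factors and cytokines. The 10 such genes named for description were Kit, Il3ra, Csf2rb, Il4r, Il2rg, Il1rl1, Il1rap, Il18r1, Il6st and Lifr, out of 14913 distinct gene names in the deposited table. They were chosen by name and role, with earlier results of these data known. Of the 10, 8 had a row in the table and each of these had more than 20 reads over both libraries. Il6st and Lifr were not analysed here.

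The receptors were measured by sequencing of poly(A) RNA from the line RBL-2H3, which derives from a rat basophilic leukemia and serves as a stand-in for mast cells and basophils. One library came from cells that were given IgE and 1 from cells with no treatment. Both carried the genotype label WT and no introduced allele or further agent is named for either. The labels state neither the IgE dose nor the time of exposure, and do not say whether an antigen was added, and a tumour line differs from the tissue cells it stands for. The question of the comparison was what follows IgE acting on its receptor, here at the level of the transcripts for other receptors on the same cell.

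Kit is the receptor tyrosine kinase for stem cell factor, on which mast cells depend for growth and survival. The type I cytokine receptors have no kinase of their own and signal through bound JAK kinases and STAT factors. Among them, Il3ra binds IL-3 and pairs with the beta chain Csf2rb that the receptors for GM-CSF and IL-5 also use, while Il4r binds IL-4 and pairs with the shared gamma chain Il2rg. The IL-1 receptor family signals through MyD88 and IRAK kinases. In it, Il1rl1, also called ST2, binds IL-33 and needs the accessory chain Il1rap, and Il18r1 binds IL-18 and needs the accessory chain Il18rap.

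The IgE library held 26268330 counted reads and the untreated library 20917968. Of 16 mast cell and basophil markers, 11 were measured. Their levels ran from 7.21 to 2301 CPM (read counts relative to library size, scaled by TMM) in the IgE library and from 5.96 to 2482 CPM in the untreated library, with sums of 6569 and 6410 CPM. The other 5 were not analysed here. Ms4a2, Hdc and Cpa3, which help define the labelled cell type, were thus present in both. Of the 11, the counting interval of the log2 fold (IgE over untreated) lay above 0 for 4, below 0 for 4 and spanned 0 for 3, from Fcer1a, the IgE-binding chain, at 0.33 (0.30 to 0.37) to the chymase-family gene Mcpt1 at -0.23 (-0.33 to -0.12). The share of all genes whose interval left out 0 was not computed, so these counts cannot be read as particular to the markers. Of 11 macrophage markers 3 were measured, with a summed level of 3.20 CPM in the IgE library and 5.49 CPM in the untreated library. All 3 were lower with IgE, but the intervals of Cd68 (-0.42, -1.09 to 0.23) and Csf1r (-0.63, -1.30 to 0.02) spanned 0. Only the scavenger receptor gene Msr1 was at least 2-fold lower, on 7 reads with IgE and 26 untreated (log2 fold -2.13, -3.66 to -0.97). Of the 12102 genes with 20 or more reads, 49.7% were lower and 1.3% at least 2-fold lower. With 3 genes, these counts cannot be read as particular to the markers. Of 10 neutrophil and eosinophil markers 1 was measured, at 1.49 CPM with IgE and 1.24 CPM untreated, and a second, Camp, had 0 reads in both. Of 12 lymphocyte markers 4 were measured, with sums of 122 CPM with IgE and 113 CPM untreated, most of it from Nkg7. Of 10 fibroblast and epithelial markers 2 were measured, Col3a1 and Thy1, with sums of 400.0 CPM with IgE and 426 CPM untreated. The part of such markers in the receptor values was not tested. With bulk RNA, fewer cells of a type and less RNA per cell cannot be told apart.

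The stretches upstream of 4 receptor genes are shown because they stand for the ends of the range that follows: Kit and Il1rl1 had the most reads, Il4r the lowest fold and Il2rg the highest. Each is the 250 bases before the annotated start, read 5′ to 3′ on the gene's strand, from RefSeq's promoter table on build GRCr8, whereas the counts were made by the authors with rn6. Capitals mark every match, on either strand, to 9 short motifs that are spelled out after the sequences.

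Kit, chr14:32978813-32979062, minus strand: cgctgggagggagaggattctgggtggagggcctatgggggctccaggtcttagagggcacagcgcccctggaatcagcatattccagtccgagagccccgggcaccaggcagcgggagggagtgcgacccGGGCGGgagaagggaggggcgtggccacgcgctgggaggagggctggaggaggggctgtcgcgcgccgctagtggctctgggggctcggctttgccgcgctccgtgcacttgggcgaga

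Il1rl1, chr9:50203388-50203637, plus strand: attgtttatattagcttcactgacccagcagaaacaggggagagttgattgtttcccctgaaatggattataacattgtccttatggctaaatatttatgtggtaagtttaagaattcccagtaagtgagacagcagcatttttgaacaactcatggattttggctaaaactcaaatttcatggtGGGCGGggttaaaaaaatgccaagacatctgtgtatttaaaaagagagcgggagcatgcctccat

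Il4r, chr1:189545525-189545774, plus strand: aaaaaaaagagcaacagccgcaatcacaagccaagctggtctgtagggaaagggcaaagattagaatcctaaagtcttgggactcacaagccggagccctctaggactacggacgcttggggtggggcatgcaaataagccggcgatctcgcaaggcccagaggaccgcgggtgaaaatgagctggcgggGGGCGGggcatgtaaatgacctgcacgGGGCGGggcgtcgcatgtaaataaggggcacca

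Il2rg, chrX:70439001-70439250, minus strand: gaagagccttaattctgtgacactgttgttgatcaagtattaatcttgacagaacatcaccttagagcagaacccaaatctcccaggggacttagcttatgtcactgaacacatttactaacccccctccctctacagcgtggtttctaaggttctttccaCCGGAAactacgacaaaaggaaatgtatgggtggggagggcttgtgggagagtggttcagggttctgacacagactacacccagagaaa

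The motifs searched were AGATAA and also TGATAA for GATA factors, TTCNNNGAA for STAT factors, TGAGTCA for AP-1, GCGNGGGCG for Egr factors, TCATGTG and also TCACGTG for MITF, CCGGAA for ETS factors, and the GC box GGGCGG. Of the 8 measured receptors, 7 had an entry in the promoter table, Csf2rb being the other, and no matches of different motifs overlapped in the 4 sequences. The GC box stood in 6 of the 7, against 30.5% of 33469 rat promoter windows of the same length, and the ETS letters CCGGAA stood in 2, those of Il3ra and Il2rg, against 12.6%. Receptors were counted per gene, with a match in either of 2 windows for Il1rap, whereas the shares are per window. The windows were not matched for G and C content. AGATAA was found upstream of Il3ra alone, 82 to 77 bases before its start, against 10.3% of all windows. TTCNNNGAA was found upstream of Il18r1 alone, 125 to 117 bases before its start, against 7.67%. The letters TGATAA had no match in any of the 7, against 7.97% of all windows. The same held for the AP-1 motif (4.05% of all windows), the Egr motif (4.29%) and both MITF motifs (3.07% and 2.79%). The Il1rl1 window lay inside the annotated gene, downstream of the gene's outermost start, so other starts of this gene are not covered. Its G and C content was 38.4%, against 70.8% for Kit, 57.2% for Il4r, 46.4% for Il2rg and a median of 51.2% over all windows.

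The receptor transcripts were close to level between the 2 libraries. None of the 8 measured receptors was at least 2-fold higher with IgE, where 1.33% of the 12102 genes with 20 or more reads were, and none was at least 2-fold lower, where 1.3% were. At 1.5-fold the counts were also 0 in both directions, against 3.6% of all genes higher and 3.57% lower. With 8 genes, counts of 0 are near what such shares would give, so they say nothing particular to receptors. There was 1 library per condition and hence no test across samples. Differences are given as log2 folds (IgE over untreated) with a 95% Clopper-Pearson interval of the read ratio that covers counting error only.

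The 8 log2 folds ran from -0.20 for Il4r to 0.11 for Il2rg, with a median of -0.08, against a median of 0.00 over the 12102 genes. There were 3 receptors above 0 and 5 below, where 49.7% of the 12102 genes were below. The counting interval lay below 0 for those 5, namely Kit, Csf2rb, Il4r, Il1rap and Il18r1, and spanned 0 for Il3ra, Il2rg and Il1rl1. It lay above 0 for 0 receptors. The share of all genes whose interval left out 0 was not computed, so these counts cannot be read as particular to receptors. Because every receptor had at least 1387 reads, the spread is given over the 6955 genes with 1000 or more reads, which is narrower than over all 12102. Their 5th and 95th percentiles were log2 folds of -0.23 and 0.27, and their quartiles -0.09 and 0.09. All 8 receptors lay between those percentiles, with 4 below the lower quartile and 1 above the upper. The threshold of 1000 reads was chosen after the values were seen.

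**Figure D1:**
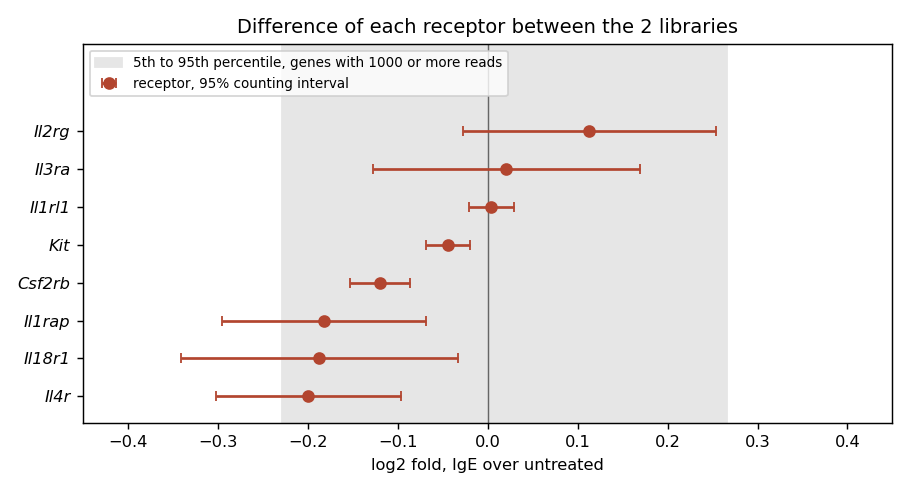
Log2 fold (IgE over untreated, x axis) of each measured receptor, with bars for the 95% counting interval and a grey band for the 5th to 95th percentile (-0.23 to 0.27) of genes with 1000 or more reads. All 8 points lie inside the band, from Il4r at -0.20 to Il2rg at 0.11.

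Kit had 29747 reads in the IgE library and 24516 in the untreated library, which corresponds to 1135 and 1170 CPM. The IgE library was thus lower by 2.98% after scaling. The log2 fold was -0.04, with a counting interval of -0.07 to -0.02. This interval is narrow because of the number of reads, and no second culture shows how far Kit varies between cultures.

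The IL-3 receptor was represented by both chains. Il3ra, the ligand-binding chain, had 850 reads with IgE and 670 untreated, or 32.4 and 32.0 CPM. The levels were nearly equal, and the log2 fold was 0.02 (-0.13 to 0.17). Csf2rb, the signalling chain, had 15613 reads with IgE and 13567 untreated, or 596 and 647 CPM. It was lower in the IgE library, by 7.99%, with a log2 fold of -0.12 (-0.15 to -0.09).

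For the IL-4 receptor the chains lay on opposite sides of 0. Il4r, the ligand-binding chain, had 1600 reads with IgE and 1469 untreated, or 61.0 and 70.1 CPM. Its level was 12.9% lower with IgE, the lowest log2 fold of the 8 receptors at -0.20 (-0.30 to -0.10). Il2rg, the shared gamma chain, had 971 reads with IgE and 718 untreated, or 37.0 and 34.3 CPM. Its level was 8.12% higher with IgE, the highest log2 fold of the 8 receptors at 0.11, but the interval of -0.03 to 0.25 included no difference.

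Among the IL-1 family receptors, Il1rl1 was the most evenly matched of all 8 receptors. It had 28422 reads with IgE and 22661 untreated, or 1084 and 1081 CPM, and a log2 fold of 0.00 (-0.02 to 0.03). Its accessory chain Il1rap had 1338 reads with IgE and 1214 untreated, or 51.0 and 57.9 CPM. That was 11.9% lower with IgE, a log2 fold of -0.18 (-0.30 to -0.07). Il18r1, the IL-18-binding chain, had 726 reads with IgE and 661 untreated, or 27.7 and 31.5 CPM. It was 12.2% lower with IgE, with a log2 fold of -0.19 (-0.34 to -0.03), and had the fewest reads of the 8 receptors.

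**Figure D2:**
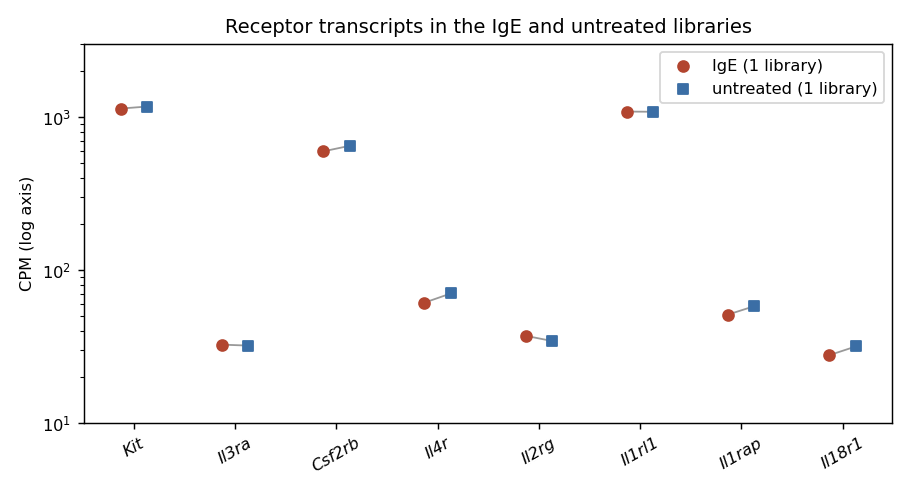
Level of each measured receptor in CPM (log axis), with the IgE library as circles on the left and the untreated library as squares on the right, 1 library each. The lines between them are short for every gene, from 1084 and 1081 CPM for Il1rl1 to 61.0 and 70.1 CPM for Il4r, and since CPM is not corrected for transcript length, heights are not to be compared between genes.

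The balance between the chains of 1 receptor was compared by the ratio of their reads within a library, which needs no scaling between libraries. Since no transcript lengths were used, the change of a ratio can be read but not its size. The ratio of Il4r to Il2rg reads was 1.65 in the IgE library and 2.05 in the untreated library, a log2 change of -0.31 with an exact counting interval of -0.49 to -0.14. The ratio of Il1rl1 to Il1rap reads was 21.2 with IgE and 18.7 untreated, a log2 change of 0.19 (0.07 to 0.30). In both, the interval left out 0, and in the first the ligand-binding chain was the lower one with IgE relative to its partner, in the second the higher one. Ratios of other gene pairs were not computed for comparison. The changes given here and below thus cannot be read as particular to receptor chains.

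For the IL-3 and IL-18 receptors the intervals included 0. The ratio of Il3ra to Csf2rb reads was 0.0544 with IgE and 0.0494 untreated, a log2 change of 0.14 (-0.01 to 0.29). Il18rap, the accessory chain for IL-18, had 3902 reads with IgE and 3317 untreated and a log2 fold of -0.09 (-0.16 to -0.02). The ratio of Il18r1 to Il18rap reads was 0.186 with IgE and 0.199 untreated, a log2 change of -0.10 (-0.27 to 0.07). Csf2ra, which binds GM-CSF and shares Csf2rb, had 314 reads with IgE and 201 untreated, a log2 fold of 0.32 (0.06 to 0.58). Its reads relative to those of Csf2rb were 0.0201 with IgE and 0.0148 untreated, a log2 change of 0.44 (0.18 to 0.71), a pair added after the values were seen.

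**Figure D3:**
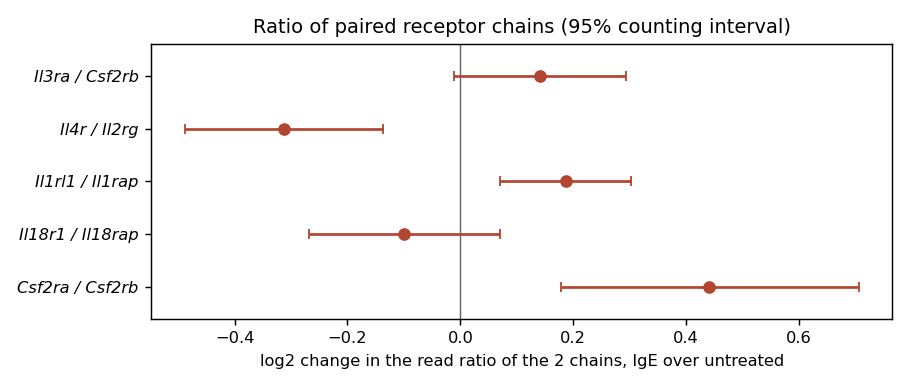
Log2 change in the read ratio of paired receptor chains (IgE over untreated, x axis), with bars for the exact 95% counting interval. The interval lies below 0 for Il4r to Il2rg (-0.31) and above 0 for Il1rl1 to Il1rap (0.19) and for the later-added Csf2ra to Csf2rb (0.44).

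Other chains of the same receptor families were listed for comparison. Of 32 related cytokine receptor chains, 15 were measured, 4 had fewer than 20 reads and 13 were not analysed here. None of the 15 was 2-fold apart, 5 were above 0 and 10 below, and the median log2 fold was -0.07. Of all genes with 20 or more reads, 49.7% were below 0. The difference from that share was not tested for this list or the later ones. Csf2ra (0.32) and the IL-2 receptor alpha chain Il2ra (0.24, 189 reads with IgE and 128 untreated, -0.09 to 0.57) were highest. The IL-15 receptor chain Il15ra (-0.31, 172 reads with IgE and 171 untreated) and the IL-11 receptor chain Il11ra1 (-0.30, 165 reads with IgE and 163 untreated) were lowest. Their intervals were -0.63 to -0.0004 for Il15ra and -0.63 to 0.02 for Il11ra1. Partners of the receptors above were among the weakly counted genes: Il5ra, the IL-5-binding partner of Csf2rb, had 4 reads with IgE and 10 untreated, and Il2rb, a partner of Il2rg, had 4 with IgE and 6 untreated. Il13ra1, Il6r and Osmr were not analysed here.

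Of 15 receptor tyrosine kinases other than Kit, 4 were measured, 11 were not analysed here and none was 2-fold apart. The angiopoietin receptor Tek was at a log2 fold of -0.32 (1159 reads with IgE and 1154 untreated, interval -0.44 to -0.20), and the hepatocyte growth factor receptor Met at 0.13 (1050 reads with IgE and 765 untreated), with an interval that reached up to 0.27 and just included 0. Csf1r, the macrophage colony-stimulating factor receptor, was at -0.63 and Tyro3 at 0.60, each on at most 46 reads a library and with an interval that spanned 0. The median of the 4 was -0.09.

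The list of ligands of these receptors, in which the IL-18 binding protein Il18bp was also counted, had the highest median of the 7 related lists. It was 0.21 over 7 measured genes, none of them 2-fold apart. Another 3 ligands had fewer than 20 reads and 16 of the 26 were not analysed here. Above 0 were 6 of the 7, all but Il18bp, which is not itself a ligand of a receptor. Over all genes with 20 or more reads, 49.7% were below 0. Il4, the ligand of Il4r, had 22 reads with IgE and 9 untreated, a log2 fold of 0.93 whose interval of -0.21 to 2.27 spanned 0. Cntf, ciliary neurotrophic factor, had 171 reads with IgE and 84 untreated, a log2 fold of 0.70 (0.32 to 1.10). Lif, the ligand of Lifr and Il6st, had 1721 reads with IgE and 906 untreated, a log2 fold of 0.60 (0.49 to 0.72), and Osm, which also uses Il6st, 3275 with IgE and 2269 untreated, 0.21 (0.13 to 0.28). Cntf, Lif and Osm all signal through receptors that hold Il6st, so the receptor side of these ligands is not covered here. Il18, the ligand of Il18r1, was at 0.11 (0.02 to 0.21), and its soluble binding protein Il18bp was lowest, at -0.49 on 55 reads with IgE and 62 untreated (-1.05 to 0.05). Il13 was at 0.09 on 24 and 18 reads (IgE and untreated), with an interval of -0.85 to 1.06. The 3 weakly counted ligands were Il3, with 2 reads with IgE and 6 untreated, Il9, with 4 with IgE and 0 untreated, and Ctf1, with 9 with IgE and 2 untreated.

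The JAK and STAT list held 1 gene at least 2-fold apart among 22 measured, the adaptor Irs1, which binds the insulin and IL-4 receptors, with 31 reads with IgE and 6 untreated (log2 fold 1.97, 0.76 to 3.60). A share of 1 in 22 rests on a gene with few reads and is set against the 1.33% of all genes given above. The list median was -0.06, with 6 genes above 0 and 16 below, where 49.7% of all genes with 20 or more reads were below. Another 4 of the 26 genes were not analysed here. Tyk2, a JAK kinase, was lowest at -0.32 (1083 reads with IgE and 1084 untreated, -0.45 to -0.20), followed by the adaptor Sh2b3 at -0.19, while Stam, an adaptor that binds JAK kinases, was at 0.14. The kinases and factors downstream of Csf2rb were near level or slightly lower, Jak2 at -0.07 (-0.15 to 0.01), Stat5a at -0.11 (-0.18 to -0.05) and Stat5b at -0.16 (-0.21 to -0.12).

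Of 16 adaptors and enzymes that act downstream of Kit, 14 were measured, 1 (Grap, with 1 read with IgE and 6 untreated) had fewer than 20 reads and 1 was not analysed here. None was 2-fold apart, with a median log2 fold of -0.03. Src (0.16, 0.04 to 0.29) and the phospholipase Plcg1 (0.09, -0.19 to 0.37) were highest. Lowest were the phosphoinositide kinase subunit Pik3r1 (-0.21, -0.26 to -0.15) and the adaptor Crkl (-0.19, -0.28 to -0.10). Of 18 genes of IL-1 and IL-18 receptor signalling, 17 were measured and none was 2-fold apart, with a median of -0.02. The kinase gene Irak2 was highest at 0.48 (77 reads with IgE and 44 untreated, -0.07 to 1.05). Next was the ubiquitin ligase Peli1 at 0.09 (-0.10 to 0.28). Tab1 at -0.39 (18 reads with IgE and 19 untreated, -1.42 to 0.61) and Tab3 at -0.31 (-0.46 to -0.17) were lowest. Both are partners of the kinase Map3k7. The shared adaptor Myd88 was at -0.13 (-0.23 to -0.03).

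Genes commonly switched on by STAT factors included 11 measured ones of 16, with a median log2 fold of 0.07 and none 2-fold apart. The feedback inhibitors Socs3 (109 reads with IgE and 164 untreated, -0.91, -1.28 to -0.55) and Socs1 (208 with IgE and 225 untreated, -0.44, -0.72 to -0.16) were lowest. The other 2 inhibitors of this group were nearer 0, Cish at 0.03 (-0.19 to 0.26) and Socs2 at -0.07 (-0.17 to 0.02). Arg1 (0.43, 34 reads with IgE and 20 untreated, -0.40 to 1.32) and Osm (0.21, 0.13 to 0.28) were highest.

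**Figure D4:**
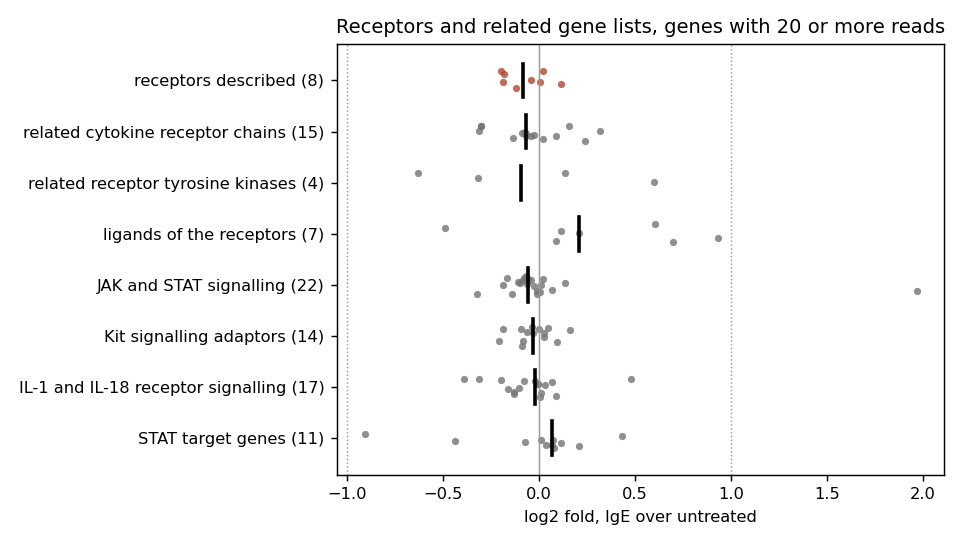
Log2 fold (IgE over untreated, x axis) of each gene with 20 or more reads, for the 8 receptors (top) and 7 related lists, with black bars at the list medians, dotted lines at a 2-fold difference and the number of genes in brackets. The receptors lie within 0.20 of 0, and the single gene past a dotted line is Irs1 at 1.97.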

How the data were processed

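The authors deposited raw read counts per gene name, their own log2 fold changes and p-values (unadjusted and adjusted), per the file headers. Build rn6 and the tools HISAT2 2.1.0, fastp 0.23.0 and DESeq2 1.18.1 are listed, with no step, per the submitters' processing notes. How reads were counted, with which strand setting and with what rule for multiply mapped reads is not given in the sources used here, so overlapping genes cannot be told apart. Of 16990 deposited rows, 2077 repeated another row exactly and were kept once, leaving 14913 names. None of the 8 receptors is in the authors' deposited list of 451 selected names.

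CPM and log2 folds (prior of 0.5 counts) were computed with edgeR 4.0.16 in R 4.3.3, with TMM scaling over the 12102 genes with 20 or more reads in sum. Intervals cover counting error only and take reads as independent. Reads without molecular identifiers are not independent molecules, so the intervals may be too narrow even for that error. A floor of 3 reads corresponds to 0.114 CPM in the IgE library and 0.143 CPM in the untreated library. The calculation of folds was tested on simulated counts with changes larger than 2-fold. Folds as small as those of the receptors, the intervals and the chain ratios were not part of that test. The receptors and all gene lists were chosen with earlier results of these data known. Named genes are every receptor, the 2 highest and 2 lowest genes of each related list, any gene of these lists at least 2-fold apart, and partner chains and ligands. Fcer1a, Mcpt1, Msr1, Jak2, Stat5a, Stat5b, Myd88, Cish and Socs2 were named after their values were seen. Other names outside these groups are Grap, Il1rl2, the 10 related chains described last, and the markers Ms4a2, Hdc, Cpa3, Cd68, Nkg7, Col3a1, Thy1 and Camp. With 2 libraries no genes were ranked by likeness to a receptor. Alternatives were library totals, DESeq2 1.42.0 size factors, a larger prior (5 counts), no filter on reads, a filter at 100 reads, and a 1.5-fold rule.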

Additional observations from a re-analysis of the deposited data

How the results depend on the processing

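No receptor reached the 2-fold rule, in either direction, under any of the alternatives tried, and all 24 alternative log2 folds of the receptors stayed within their counting intervals. The largest shift was 0.0058 on the log2 scale, with library totals, under which Il1rl1 alone changed sign (its interval spans 0). The receptors' median ranged from -0.09 with library totals to -0.08 under the other settings. For the 2 highest and 2 lowest genes of each related list and any gene at least 2-fold apart, the 84 alternative folds also stayed within their counting intervals. Named genes outside these and the receptors were not rechecked. Of the 35 alternative medians of related lists, 34 moved by at most 0.018. The exception was the ligand list, with 0.41 in place of 0.21 when no minimum of reads was set, which adds Il3, Il9 and Ctf1. The 2-fold rule took in 161 higher and 157 lower genes of the whole table. These counts became 104 higher and 100 lower under the larger prior of 5, 855 and 875 without a filter, 21 and 15 at 100 or more reads, and 436 and 432 at 1.5-fold. No paired analysis was possible because there was a single library on each side, and no library could be left out. Variation between cultures is not measured, so differences of the size seen in the receptors have no replicate check.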

Other observations

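Part of the IL-1 receptor family stands side by side in the RefSeq table (GRCr8), in the order Il1r1, Il1rl2, Il1rl1, Il18r1, Il18rap. Il1rap lies elsewhere, on chromosome 11. Il1rl1 had 28422 reads with IgE and 22661 untreated, and Il18rap 3902 with IgE and 3317 untreated. Il18r1, between them, had 726 reads with IgE and 661 untreated, and Il1rl2, next to Il1rl1 on the other side, had 4 with IgE and 0 untreated. Il1r1 was not analysed here. The log2 folds of the 3 counted neighbours were 0.00 for Il1rl1, -0.19 for Il18r1 and -0.09 for Il18rap.

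Of the 15 measured related cytokine receptor chains, the 10 not described above ran from -0.30 for Il9r to 0.16 for Il10ra. Il9r, which pairs with Il2rg, had 576 reads with IgE and 568 untreated, with an interval of -0.47 to -0.13. Ifnar1 and Ifnar2, the chains of the type I interferon receptor, had log2 folds of -0.14 (-0.26 to -0.01) and -0.07 (-0.26 to 0.12). Ifngr1 and Ifngr2, the chains of the interferon gamma receptor, were at 0.02 (-0.10 to 0.14) and -0.07 (-0.17 to 0.03). Epor, the erythropoietin receptor, was at -0.07 (-0.27 to 0.12), Il17ra at -0.04 (-0.14 to 0.05) and Crlf2, a chain of the TSLP receptor, at -0.03 (-0.25 to 0.20). Il27ra was at 0.09 on 36 reads with IgE and 27 untreated (-0.67 to 0.87). The IL-10-binding chain Il10ra had an interval of -0.05 to 0.37.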
